A study of Homo sapiens with 6 samples.

Results

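The 3′ UTR regions are the stretches of the genome that the authors called as occupied by RPB1 or by RPB1 phosphorylated at serine 2 (pSer2) and annotated as 3′ UTR. They numbered 27705 of the 271336 regions in the 4 deposited lists. The WT RPB1 list held 3592 of them among 46045 regions, the SHP-1 KO RPB1 list 3351 among 41605, the WT pSer2 RPB1 list 11204 among 102674 and the SHP-1 KO pSer2 RPB1 list 9558 among 81012.

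RPB1 is the largest subunit of RNA polymerase II, the enzyme that transcribes protein-coding genes. Its long C-terminal tail gains phosphate on serine 2 as the enzyme elongates, and this mark is known to build up toward the 3′ end of genes, where it helps to recruit the factors that cleave and polyadenylate the nascent RNA. The 3′ UTR is the last part of a messenger RNA, between the stop codon and the poly(A) tail, and the hexamer AATAAA or its variant ATTAAA, a short way before its end, marks the place of cleavage.

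The libraries came from untreated HepG2 cells, a human hepatoma line. WT cells were a CRISPR control that keeps SHP-1, the tyrosine phosphatase encoded by PTPN6, and SHP-1 KO cells were a CRISPR knockout of it. Each of the 4 ChIP groups had 1 library, and each genotype had 1 library of input DNA, which was used by the authors in peak calling and was not analysed here. The study isolated its knockout cells as clones grown from single cells, and which clone and guide served for ChIP-seq is not given in the sources used here, so the genotype and the clone cannot be told apart.

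The value given for a region is the fold enrichment over input at its summit, as the authors' peak caller wrote it. These values and the −log10 q-values were not scaled between libraries. The lists give no read counts, which leaves the sequencing depth unknown. A single library stood for each group, so no difference here has a replicate check or a p-value. The 95% intervals below cover counting error over regions only, and regions of 1 gene share their source. All 8 hepatocyte marker genes examined, among them ALB, AFP, APOA1, TTR, SERPINA1, FGB and HNF4A, carried a region somewhere in the gene in all 4 lists. PTPRC, CD3E, COL1A1, COL1A2, CDH5, VWF, SYT1 and SNAP25, markers of blood cells, fibroblasts, endothelium and neurons, carried none in any list, while CD68, PDGFRB, PECAM1 and RBFOX3 carried a region in all 4.

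The sequences at the 3′ ends to which the results return are those of 3 of the genes with the strongest 3′ UTR regions in all 4 lists (GGCX, CX3CL1 and SLC17A9), of genes among the strongest of a single list (EEF1A1, RPL19 and VEGFA), and of PCK1 and PTPN6. Each is 30 bases of hg38 in the sense of the gene, close to the end of its main coding transcript in GENCODE release 44, with the AATAAA or ATTAAA nearest to that end in capitals. In hg38 the windows lie at chr2:85544723-85544752 for GGCX (reverse strand), chr16:57385009-57385038 for CX3CL1 (forward), chr20:62969553-62969582 for SLC17A9 (forward), chr6:73515755-73515784 for EEF1A1 (reverse), chr17:39204694-39204723 for RPL19 (forward), chr6:43786449-43786478 for VEGFA (forward), chr20:57568078-57568107 for PCK1 (forward) and chr12:6961282-6961311 for PTPN6 (forward).
GGCX: cctggttttgaaAATAAAacaaagttaaaa
CX3CL1: ttgtattttactAATAAAatttaaaagtct
SLC17A9: tttttaaggctgAATAAAatattgtgtgga
EEF1A1: cttgctcactacAATAAAtgaattttaagc
RPL19: atcagccattaaAATAAAacaagccttaat
VEGFA: aaagcattttgtATTAAAgaatttaattct
PCK1: acccctgtctacAATAAAcaggatcctatg
PTPN6: tctcctcttgtaAATAAAgccctgggatca
The hexamers of CX3CL1, SLC17A9, EEF1A1 and RPL19 were covered by a 3′ UTR region in all 4 lists. That of GGCX was covered in both pSer2 RPB1 lists and in neither RPB1 list. That of VEGFA was covered by a 3′ UTR region in both WT lists. In SHP-1 KO cells it was covered by no RPB1 region and by a pSer2 RPB1 region annotated promoter. That of PTPN6 was covered by a 3′ UTR region in the WT RPB1 list and by no region in the other 3 lists, and that of PCK1 by no region in any list, although its 3′ UTR held regions closer to the stop codon in WT cells.

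To see how much of the polymerase signal was called at 3′ UTRs, the share of each list with this annotation was taken. It was 7.80% (95% Wilson interval 7.56 to 8.05) in the WT RPB1 list and 8.05% (7.80 to 8.32) in the SHP-1 KO RPB1 list, and these intervals overlap. In the pSer2 RPB1 lists it was 10.9% (10.7 to 11.1) in WT and 11.8% (11.6 to 12.0) in SHP-1 KO cells. The 3′ UTR was thus a larger part of the pSer2 RPB1 list than of the RPB1 list in each genotype, beyond counting error. Each share depends on the other classes. Promoters made up 44.6% (WT) and 47.4% (SHP-1 KO) of the RPB1 lists and 23.9% and 25.1% of the pSer2 RPB1 lists. Introns rose more than 3′ UTRs, from 25.5% and 24.8% to 44.5% and 43.2%, so a rise was not particular to 3′ UTRs. The part of the promoter share in the step was not tested. The step between antibodies for 3′ UTRs grew under a stricter threshold, a −log10 q-value of 5 or more, with 6.83% and 7.12% for RPB1 against 12.7% and 13.7% for pSer2 RPB1. It shrank when the summit had to lie inside a GENCODE 3′ UTR, with 8.00% and 8.22% against 9.79% and 10.6%.

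Every annotation class held fewer regions in SHP-1 KO than in WT cells, and the ratio was higher for 3′ UTRs than for most other classes. For RPB1, the ratio of SHP-1 KO to WT region numbers was 0.933 for 3′ UTRs, against 0.904 over all regions, 0.960 for promoters, 0.879 for introns, 0.840 for exons and 0.763 for distal intergenic regions. For pSer2 RPB1 the ratio for 3′ UTRs was 0.853, the highest of the 7 classes, against 0.789 over all regions and 0.830 for promoters. How far such ratios vary between repeat libraries was not measured. The ratio also varied along the genome. On chromosome arm 1p it was 0.806 for RPB1 (253 WT and 204 SHP-1 KO regions) and 0.740 for pSer2 RPB1 (720 and 533), and all regions of 1p had ratios of 0.781 and 0.633.

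**Figure D1:**
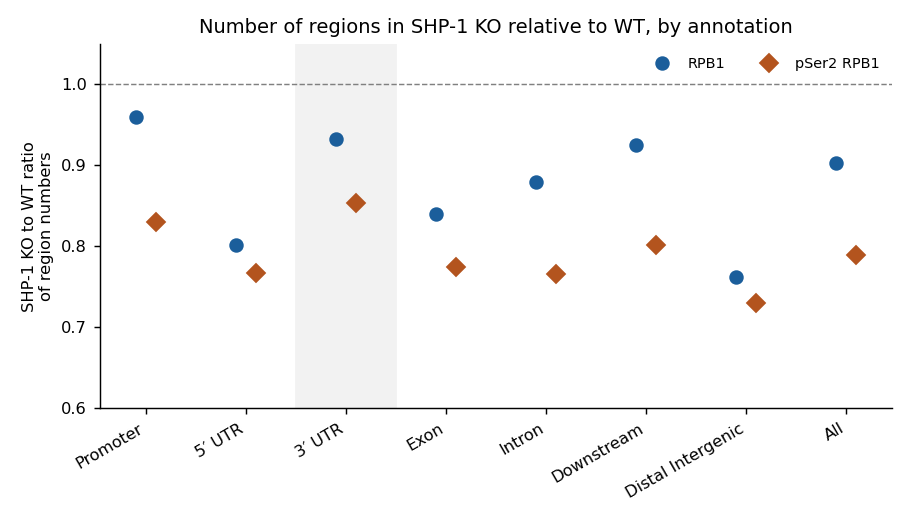
Ratio of the number of regions in the SHP-1 KO list to that in the WT list (vertical axis) for each annotation class (horizontal axis), with circles for RPB1 and diamonds for pSer2 RPB1. There is 1 library per group and no error is drawn; the 3′ UTR class, shaded, lies at 0.933 for RPB1 and 0.853 for pSer2 RPB1, above the ratios of all regions (0.904 and 0.789).

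In height and width, the 3′ UTR regions lay below the whole list for RPB1 and above it for pSer2 RPB1. Over all regions the median fold enrichment was 5.51 and 5.62 in the WT and SHP-1 KO RPB1 lists and 3.69 and 3.80 in the pSer2 RPB1 lists. The median widths of all regions were 443, 423, 350 and 357 bp in the same order. The median fold enrichment of 3′ UTR regions was 5.09 (95% interval of the median 5.01 to 5.22) in the WT RPB1 list, 5.24 (5.18 to 5.28) in the SHP-1 KO RPB1 list, 4.00 (3.95 to 4.06) in the WT pSer2 RPB1 list and 4.07 (4.07 to 4.09) in the SHP-1 KO pSer2 RPB1 list. In the RPB1 lists they stood far below promoters, with medians of 11.9 (WT) and 9.89 (SHP-1 KO), and near exons (5.01 and 5.13). In the pSer2 RPB1 lists they stood slightly above promoters in WT cells (3.87) and close to them in SHP-1 KO cells (4.02), and above introns (3.51 and 3.60). Downstream regions stood slightly higher still (4.06 and 4.15). The median width of the 3′ UTR regions was 398 bp and 385 bp for RPB1 and 468 bp and 466 bp for pSer2 RPB1, and in the pSer2 RPB1 lists this was wider than promoter regions (386 bp and 387 bp). The longest single 3′ UTR region spanned 29617 bp, in the WT pSer2 RPB1 list.

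To place the summits along the transcript, each region was given a host gene, the gene whose GENCODE 3′ UTR lies under the summit or, failing that, the gene whose 3′ UTR it overlaps most. A host was found for 98.4% to 98.7% of the regions in the 4 lists. The deposited lists name instead the gene with the nearest start, and the symbols were the same for 64.3% to 64.9% of the regions. Relative to the end of the host transcript, with negative values before it, the median summit lay at -847 bp (95% interval -896 to -797) in the WT RPB1 list and at -767 bp (-806 to -718) in the SHP-1 KO RPB1 list. The pSer2 RPB1 summits lay farther from the end, at -1202 bp (-1249 to -1157) in WT and -1193 bp (-1238 to -1147) in SHP-1 KO cells. Their host 3′ UTRs were also longer, with medians of 2557 bp and 2562 bp against 1781 bp and 1826 bp for RPB1.

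Among summits inside the 3′ UTR of a main coding transcript, the median position was 54.1% of the way from the stop codon side to the end in the WT RPB1 list (95% interval 52.3 to 56.1) and 54.9%, 54.8% and 54.8% in the SHP-1 KO RPB1, WT pSer2 RPB1 and SHP-1 KO pSer2 RPB1 lists, and all 4 intervals overlap. The last kb before the transcript end held 41.4% and 43.1% of the summits in the WT and SHP-1 KO RPB1 lists and 30.8% and 30.7% in the pSer2 RPB1 lists. Summits past the annotated end made up 13.7% to 15.1% of each list. A region past the end falls into another annotation class, so the steep drop there is set by the rule that chose the regions.

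**Figure D2:**
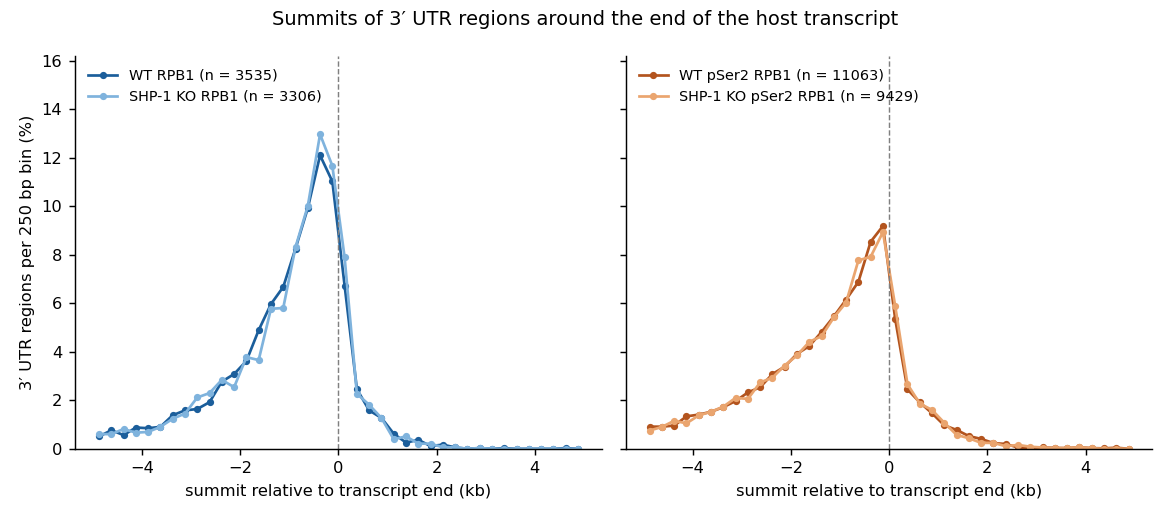
Share of the 3′ UTR regions of each list (vertical axis, % per 250 bp bin) against the distance of the summit from the end of the host transcript (horizontal axis, kb, negative before the end), with RPB1 on the left and pSer2 RPB1 on the right. The highest bin lay from 500 to 250 bp before the end in the RPB1 lists (12.1% for WT, 13.0% for SHP-1 KO) and in the last 250 bp before it in the pSer2 RPB1 lists (9.19% and 8.94%), and the curves of the 2 genotypes run close together.

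The windows of 201 bp centred on the summits were searched for AATAAA or ATTAAA on either strand. A hexamer was found in 21.4% of the WT RPB1 windows (95% Wilson interval 20.1 to 22.8), 26.9% (25.4 to 28.4) of the SHP-1 KO RPB1 windows, 38.3% (37.4 to 39.2) of the WT pSer2 RPB1 windows and 38.7% (37.8 to 39.7) of the SHP-1 KO pSer2 RPB1 windows. Over all regions of the same lists the shares were 15.7%, 18.2%, 34.8% and 35.1%. Intron windows held the hexamers about as often or more often, in 22.8%, 27.0%, 40.7% and 41.5%, so the hexamers were not particular to 3′ UTR regions. Base composition moved with these shares, as the median GC content of the 3′ UTR windows was 55.2% and 51.7% in the WT and SHP-1 KO RPB1 lists and 43.3% in both pSer2 RPB1 lists, and its part in the result was not tested. A match says only that the letters are present.

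The same 3′ UTRs were then followed between antibodies. Of the 3′ UTR regions of the WT RPB1 list, 85.4% (84.2 to 86.6) were overlapped by at least 1 bp of a WT pSer2 RPB1 region, where 58.9% of all regions of that list were. In the SHP-1 KO RPB1 list it was 87.2% (86.0 to 88.3), against 58.2% of all its regions. In the other direction, an RPB1 region overlapped 21.7% (21.0 to 22.5) of the pSer2 RPB1 regions in 3′ UTRs of WT cells and 23.3% (22.5 to 24.2) of those of SHP-1 KO cells, against 24.2% and 26.1% of all regions of those lists. Downstream regions, which lie just past gene ends, gave RPB1 shares close to those of 3′ UTRs, at 82.7% and 83.4%, while promoters gave 55.6% and 52.0%. The overlap was mostly partial: when 50% of both regions had to be shared, the RPB1 values were 17.0% and 17.1% and the pSer2 RPB1 values 5.76% and 6.28%.

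The high share for RPB1 held at every height. In the WT RPB1 list it was 81.6% for 3′ UTR regions with a fold enrichment from 3 to 4 and 94.1% for those at 10 or more, against 46.6% and 61.9% of the other regions in the same ranges. The pSer2 RPB1 regions in 3′ UTRs went from 8.01% overlapped by RPB1 at 3 to 4 to 87.2% at 10 or more in WT cells. Other pSer2 RPB1 regions of WT cells went from 16.3% to 90.6%. In both pSer2 RPB1 lists the 3′ UTR regions were overlapped less often than other regions in every range, with overlapping intervals at 10 or more. Regions seen with both antibodies were the large ones. In the WT pSer2 RPB1 list, 2433 overlapped 3′ UTR regions had a median width of 1545 bp and a median fold enrichment of 6.17, and the 8771 others had 388 bp and 3.78. Their summits were also nearer to the transcript end, with medians of -456 bp and -1442 bp.

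**Figure D3:**
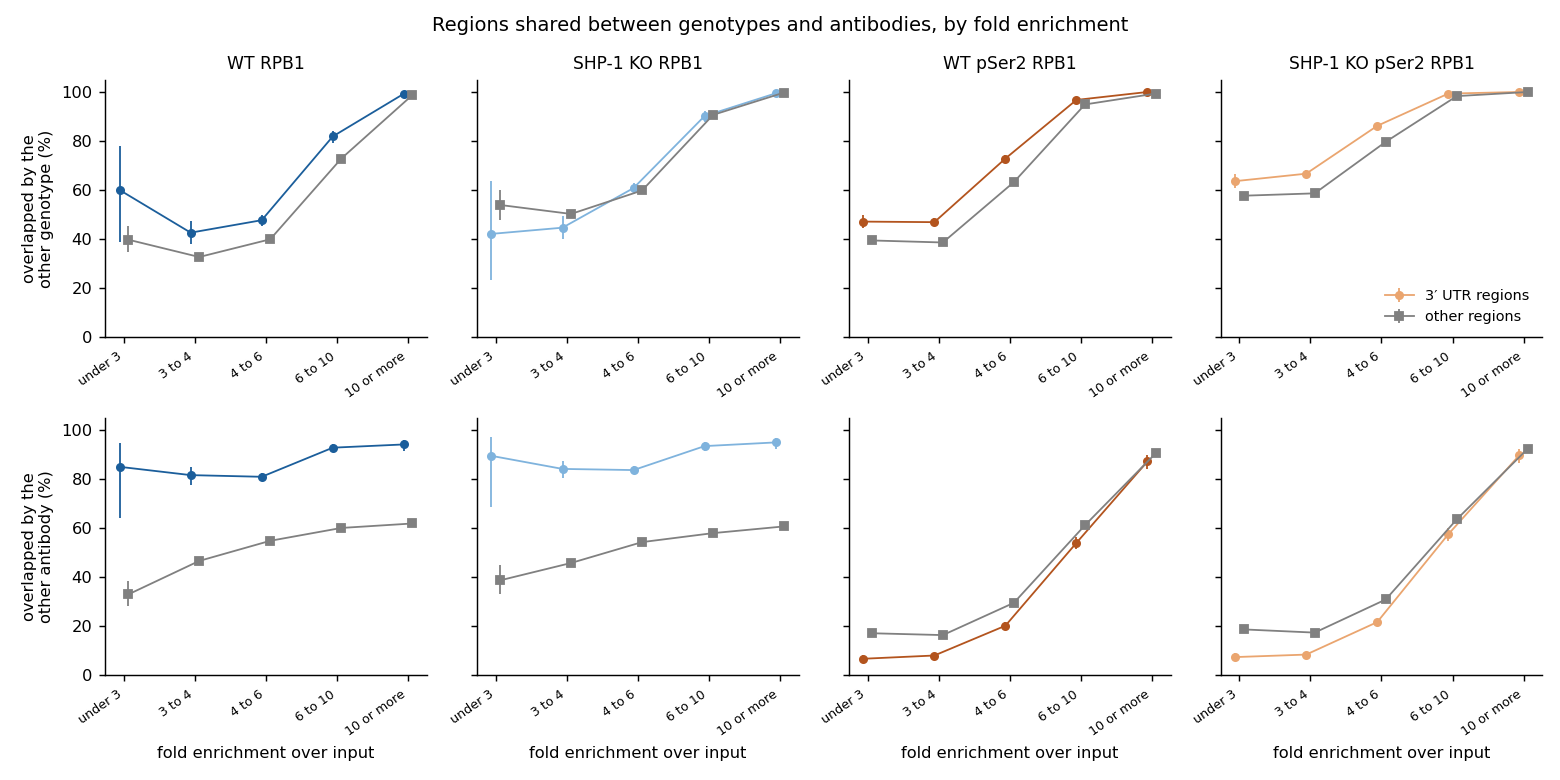
Share of regions (vertical axes, %) overlapped by at least 1 bp of a region of the other genotype with the same antibody (upper row) or of the other antibody in the same genotype (lower row), against fold enrichment over input (horizontal axis, 5 ranges), with 1 column per list. Coloured circles are 3′ UTR regions, grey squares are all other regions, and bars are 95% Wilson intervals that cover counting error only. At a fold enrichment of 10 or more, sharing of 3′ UTR regions between genotypes reached 99.3% or more and that of other regions 98.7% or more, and in the RPB1 lists the 3′ UTR regions lie above the other regions in overlap with pSer2 RPB1 in every range. In the pSer2 RPB1 lists they lie below the other regions in overlap with RPB1.

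Between genotypes, presence in the other list was compared for the same antibody. Of the WT RPB1 regions in 3′ UTRs, 61.3% (59.7 to 62.9) were overlapped by a SHP-1 KO RPB1 region and 38.7% were not, where 38.1% of all WT RPB1 regions were not. Of the SHP-1 KO RPB1 regions in 3′ UTRs, 69.5% (68.0 to 71.1) were overlapped by a WT region, less often than over the whole list, of which 25.1% were not overlapped. The whole lists hold many promoters, which gave 76.5% (WT) and 86.8% (SHP-1 KO) for RPB1. Introns gave 45.5% and 56.7%, downstream regions 56.9% and 69.4%, exons 53.2% and 71.3%, and distal intergenic regions 49.0% and 72.0%. For pSer2 RPB1 the 3′ UTRs were shared more often than the list as a whole. In WT cells 64.3% (63.4 to 65.2) were overlapped by a SHP-1 KO region, where 47.8% of all WT regions were not overlapped, and in SHP-1 KO cells 79.0% (78.2 to 79.8) were overlapped by a WT region, where 30.1% of all regions were not. Downstream regions gave 61.3% (WT) and 83.9% (SHP-1 KO), promoters 62.1% and 77.0%, and introns 43.0% and 59.9%. Sharing at this level was thus not particular to 3′ UTRs.

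Sharing was far more frequent among high regions. Among WT RPB1 regions in 3′ UTRs, 42.6% (38.1 to 47.2) of those with a fold enrichment from 3 to 4 had a SHP-1 KO partner, against 32.7% (31.4 to 34.0) of the other regions in that range. From 4 to 6 the shares were 47.7% and 39.9%, and from 6 to 10 they were 81.8% and 72.8%, with intervals that do not overlap. The 3′ UTR regions of that list were thus shared more often than other regions of like height, although the shares over all heights were close. At 10 or more it was 406 of 409 (99.3%), against 98.7% of the others. The SHP-1 KO RPB1 list showed no such excess. Its shares for 3′ UTR and other regions were 44.6% and 50.2% from 3 to 4, 60.8% and 59.8% from 4 to 6, and 90.2% and 90.7% from 6 to 10. All 602 WT pSer2 RPB1 regions in 3′ UTRs at 10 or more had a partner, which allows a share without one of up to 0.498%, as did all 486 of the SHP-1 KO list (up to 0.617%). Other regions of that height were shared as fully, 1443 of 1452 of them in WT cells and all 1267 in the knockout. Regions without a partner in the other genotype were mostly low ones.

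Where a WT RPB1 region had a SHP-1 KO partner, the heights in 3′ UTRs were centred on equality, as were those in introns and downstream regions, while those at promoters were not. The median log2 ratio of fold enrichment, SHP-1 KO over WT, was -0.00 (-0.04 to 0.02) over 2203 3′ UTR pairs of RPB1, with 49.6% higher in SHP-1 KO cells. Over 15705 promoter pairs it was -0.37 (-0.38 to -0.36), with 24.1% higher in SHP-1 KO cells. It was 0.01 in introns, 0.05 in downstream regions and -0.05 (-0.08 to -0.02) in exons, so a median near 0 was not particular to 3′ UTRs. Promoters had the lowest median, but it was also below 0 in 5′ UTRs (-0.21, -0.30 to -0.09) and distal intergenic regions (-0.13, -0.15 to -0.10). The promoter pairs were also taller, with a WT median of 20.4 against 6.01 for 3′ UTR pairs. For pSer2 RPB1 the median log2 ratio was -0.01 (-0.02 to 0.01) over 7204 3′ UTR pairs and -0.00 (-0.01 to 0.00) over 15221 promoter pairs. Lower promoter heights in SHP-1 KO cells were thus seen with RPB1 and not with pSer2 RPB1. Single 3′ UTR pairs of RPB1 ranged widely, from -0.91 at the 5th to 1.20 at the 95th percentile. These ratios are of values that were not scaled between the libraries, and a pair enters only when it was called in both.

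Per gene, 2169 of 19226 coding genes (11.3%) had a 3′ UTR region in the WT RPB1 list, 2014 (10.5%) in the SHP-1 KO RPB1 list, 5121 (26.6%) in the WT pSer2 RPB1 list and 4499 (23.4%) in the SHP-1 KO pSer2 RPB1 list. A total of 956 genes had one in all 4 lists and 6469 in at least 1. The WT and SHP-1 KO RPB1 lists had 1409 genes in common, 65.0% of the WT genes and 70.0% of those of SHP-1 KO cells, and the pSer2 RPB1 lists 3777, which is 73.8% and 84.0%. Most genes with a 3′ UTR region also had a region at their start. An RPB1 region lay within 1 kb of the start of the main transcript for 90.4% of the WT RPB1 genes and 92.4% of the WT pSer2 RPB1 genes, against 61.1% of all coding genes.

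Genes that end face to face with a neighbour on the other strand were more frequent among the hosts. Of all coding genes, 10.4% (9.93 to 10.8) had the end of a coding gene of the opposite strand within 1 kb of their own end, and this was true of 21.5% (19.9 to 23.3) of the WT RPB1, 21.8% (20.1 to 23.7) of the SHP-1 KO RPB1, 14.3% (13.4 to 15.3) of the WT pSer2 RPB1 and 15.4% (14.4 to 16.5) of the SHP-1 KO pSer2 RPB1 genes. ChIP-seq carries no strand, so the polymerase of such a pair cannot be assigned to 1 of the genes.

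The 6 genes with the highest fold enrichment in whichever list it was lowest, among those with a 3′ UTR region in all 4 lists, were AKR1C1, GGCX, CKAP5, CX3CL1, SLC17A9 and CDH15. AKR1C1, an aldo-keto reductase that acts on steroids, reached 31.9 and 26.2 in the WT and SHP-1 KO RPB1 lists and 39.7 and 28.9 in the WT and SHP-1 KO pSer2 RPB1 lists. Its WT pSer2 RPB1 region, chr10:4980732-4986873, was the strongest of all pSer2 RPB1 regions in 3′ UTRs. Its SHP-1 KO counterpart had nearly the same borders, chr10:4980731-4987001.

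GGCX, the carboxylase that activates vitamin K-dependent clotting factors, reached 30.9 and 40.2 for RPB1 and 23.6 and 26.1 for pSer2 RPB1. It ends next to MAT2A, which makes S-adenosylmethionine and is the gene named for these regions in the deposited lists. CKAP5, a microtubule-associated protein, had 1 long region in each list with fold enrichments of 23.5 and 23.3 for RPB1 and 22.2 and 21.5 for pSer2 RPB1, the closest agreement of the 6. The WT RPB1 region of CKAP5 was 8024 bp long and the WT pSer2 RPB1 region 11007 bp. SLC17A9, a vesicular nucleotide transporter, gave 19.1, 19.4, 24.4 and 21.6 in the order WT RPB1, SHP-1 KO RPB1, WT pSer2 RPB1 and SHP-1 KO pSer2 RPB1.

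CX3CL1, the membrane-bound chemokine fractalkine, gave 19.8 and 21.1 for RPB1 and 30.3 and 21.5 for pSer2 RPB1, so the WT pSer2 RPB1 library was the high one. At CDH15, a cadherin of muscle, the WT RPB1 library stood far above the others, with 87.9 against 27.4 in SHP-1 KO cells and 18.7 and 19.4 for pSer2 RPB1. That region, chr16:89188440-89196781, is the strongest RPB1 region of any 3′ UTR, and the deposited list names SLC22A31 for it. It was 8342 bp long over a 3′ UTR of 337 bp, and its summit lay at -3174 bp from the end of CDH15. In the SHP-1 KO list 3 regions overlapped the same stretch, the strongest with a fold enrichment of 82.1, and the one called 3′ UTR was 3620 bp long.

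**Figure D4:**
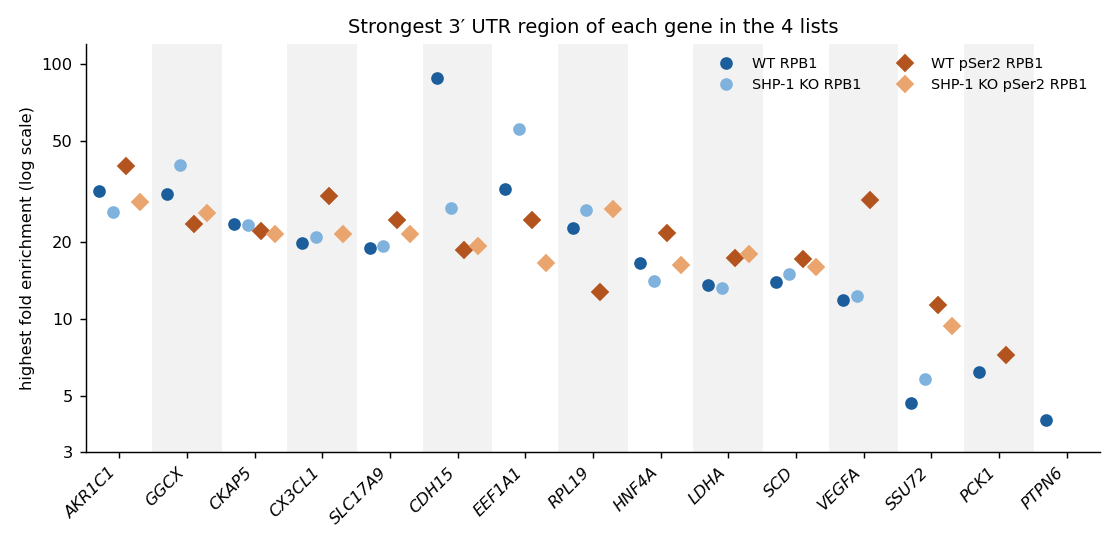
Highest fold enrichment among the 3′ UTR regions of each gene (vertical axis, log scale) in the 4 lists, for 15 genes (horizontal axis), with circles for RPB1, diamonds for pSer2 RPB1, dark colours for WT and light colours for SHP-1 KO cells; a missing symbol means that the list held no region annotated 3′ UTR for the gene. PCK1 has symbols for WT cells only, at 6.18 and 7.25, and PTPN6 has 1 symbol, at 4.01.

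The other strongest RPB1 regions in 3′ UTRs in WT cells were a region shared by FUT6, a fucosyltransferase, and NRTN, the growth factor neurturin (chr19:5826130-5830588, fold enrichment 79.7), a region at THEM6 on chromosome 8 (63.8), TTC34 (54.9), ABHD17A (54.1) and C1QTNF8 (49.5). Summits of the FUT6 and ABHD17A regions were 29 bp and 43 bp from an annotated transcript start. In SHP-1 KO cells the strongest was EEF1A1, the translation elongation factor that delivers aminoacyl-tRNA to the ribosome (chr6:73512787-73517559, 55.5), with 32.4 in WT cells. THEM6 (51.2), NRTN (50.8), ST3GAL2 (46.2) and GGCX (40.2) were also among the 6 strongest. Starts within 1 kb of the summit were found for 9.55% of the RPB1 regions in 3′ UTRs in WT cells, for 10.6% in SHP-1 KO cells, and for 6.91% and 7.27% of the pSer2 RPB1 regions.

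The strongest pSer2 RPB1 regions in 3′ UTRs after AKR1C1 in WT cells lay over FTH1, the ferritin heavy chain, whose 3′ end overlaps that of BEST1 (chr11:61962396-61964732, 34.2), and at RPS6KA3 (32.0), ABCC2, the canalicular export pump (31.8), CX3CL1 (30.3) and VEGFA, the vascular growth factor (29.3). In SHP-1 KO cells they lay over RBP4, the plasma carrier of retinol, with FFAR4 as the host (chr10:93589176-93599101, 32.3), and at RPS19 (29.9), AKR1C1 (28.9), HSPD1, a mitochondrial chaperonin (28.0), RPL19 (26.9) and TUBB4B, a tubulin (26.6). All of these 12 regions were overlapped by a region of the other genotype. The partner was lower at RPL19 (12.8 in WT) and RPS19 (12.5) and at ABCC2 (12.5 in SHP-1 KO).

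PCK1, the enzyme that commits carbon to gluconeogenesis, had 3′ UTR regions in WT cells with both antibodies and none in SHP-1 KO cells with either. Its strongest RPB1 region had a fold enrichment of 6.18, and its strongest pSer2 RPB1 region, with 7.25, ranked the 6th among the 4000 WT pSer2 RPB1 regions in 3′ UTRs that no SHP-1 KO region overlapped. The pSer2 RPB1 summits lay at -887 bp and -479 bp from the end of the transcript and the RPB1 summits at -1879 bp and -1126 bp, so the pSer2 RPB1 signal was called nearer to the poly(A) signal printed above. PTPN6 had 1 RPB1 region of 200 bp in WT cells, chr12:6961261-6961460, with a fold enrichment of 4.01 and its summit at -30 bp from the transcript end. Neither the SHP-1 KO RPB1 list nor either pSer2 RPB1 list held a 3′ UTR region for it. These values say nothing of the amount of SHP-1 protein, so they are no check of the genotype labels.

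The other strongest 3′ UTR regions of WT cells without a SHP-1 KO partner were, for RPB1, at ADAMTS13, the protease that cleaves von Willebrand factor (15.1), ZMIZ2 (12.5), BAHCC1 (11.6), TMEM143 (9.92), ARHGEF16 (9.28) and CLSTN1 (9.18). For pSer2 RPB1 they were at MAB21L4 (8.76), DIO1, the deiodinase that activates thyroid hormone (8.37), TCF19 (7.61), MYOM3 (7.37) and TBC1D13 (7.37). ARHGEF16, CLSTN1, DIO1 and MYOM3 lie on 1p, where 52.2% of the WT RPB1 and 55.0% of the WT pSer2 RPB1 regions in 3′ UTRs had a SHP-1 KO partner, against 52.5% and 40.8% of all regions of the arm. The part of the arm in these differences was not tested. In SHP-1 KO cells the strongest without a WT partner were, for RPB1, at EXD3 (12.8), NAT8L (10.6), CPLX2 (9.99), AGMAT (9.57), SSR1 (9.43) and SLTM (8.98), and for pSer2 RPB1 at PRIMA1 (a pair of regions, 7.05 and 6.83), EIF3K (6.96), LARP4 (6.71), IRX3 (6.65) and AP5Z1 (6.20). AGMAT also lies on 1p. These heights are far below those of the strongest regions that were shared.

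Some genes were host to many separate regions. In the WT pSer2 RPB1 list, NFAT5, a transcription factor of the osmotic stress response, had 19, COL27A1, a fibrillar collagen, 18, and C22orf39, G3BP1, a stress granule protein, and SMAD2, a mediator of TGF-beta signalling, 16 each, and ENPP1 15. In SHP-1 KO cells the numbers were 16 for NFAT5, 18 for COL27A1, 13 for C22orf39, 12 for G3BP1, 15 for SMAD2 and 14 for ENPP1. The 3′ UTRs of NFAT5, G3BP1 and SMAD2 were long (8303, 8694 and 32870 bp). The regions of COL27A1 did not lie along 1 long 3′ UTR, since its strongest summits were at 576 bp (WT) and -53247 bp (SHP-1 KO) from the transcript end, in 3′ UTRs of 1816 and 3873 bp. NFAT5, G3BP1 and SMAD2 were host to no 3′ UTR region in either RPB1 list. Of all genes with a region, 27.5% in the WT pSer2 RPB1 list had 3 or more, against 14.2% in the WT RPB1 list.

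A gene without a 3′ UTR region could still have polymerase over its 3′ UTR, because the authors' annotation gives each region 1 class and ranks promoters first. The ALB region of the WT RPB1 list, for albumin, spanned 19524 bp (chr4:73403839-73423362, fold enrichment 24.4), and those of SERPINA1 (67.2), APOA1 (51.0) and FTL (84.2) likewise overlapped the 3′ UTR and were classed as promoter. Over all coding genes, any region covered part of the 3′ UTR of the main transcript for 3332 genes in the WT RPB1 list, and for 1365 of them (41.0%) the region with most overlap was classed as promoter, with a median fold enrichment of 19.9, against 5.51 for those classed as 3′ UTR. In the SHP-1 KO RPB1 list it was 1161 of 3014 (38.5%), and in the pSer2 RPB1 lists 1938 of 6731 (28.8%) in WT and 1665 of 5907 (28.2%) in SHP-1 KO cells.

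This bears on the genes with a 3′ UTR region in 1 genotype alone. For RPB1, 760 genes had one in WT cells alone and 605 in SHP-1 KO cells alone, and in 132 (17.4%) and 214 (35.4%) of these a region of another class or with another host covered the 3′ UTR in the other genotype. For pSer2 RPB1 the numbers were 237 of 1344 (17.6%) for WT cells alone and 320 of 722 (44.3%) for SHP-1 KO cells alone. HSPA5, the chaperone BiP, is an example: its 3′ UTR region in the WT RPB1 list (31.3) had as counterpart in SHP-1 KO cells a promoter region of 10502 bp with 62.6. At VEGFA, the 3′ UTR region of the WT pSer2 RPB1 list corresponded to a promoter region of 16680 bp in SHP-1 KO cells, with 19.1. No region of any class covered the 3′ UTR of PCK1 in SHP-1 KO cells.

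**Figure D5:**
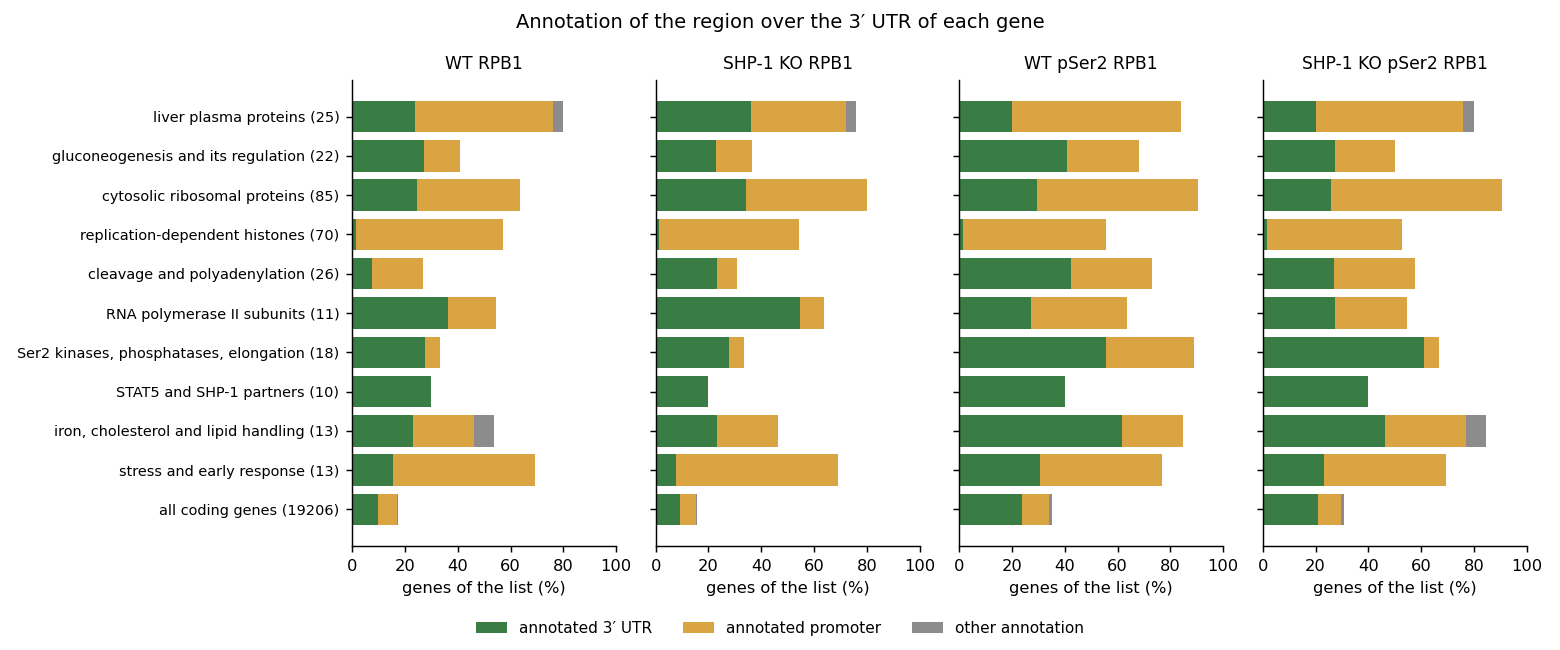
Genes of each list (vertical axis, number of genes in brackets) whose 3′ UTR was covered by a region, as % of the genes of the list (horizontal axis), with 1 panel per peak list. Green is a region annotated 3′ UTR, ochre a region annotated promoter and grey another annotation; replication-dependent histones are covered almost wholly by promoter regions, 39 of 70 genes in the WT RPB1 list.

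Gene groups were compared by how many members were host to a 3′ UTR region, beside the percentages of all coding genes given above. Among coding genes with a region of the same list at their start, 16.7% (WT) and 16.2% (SHP-1 KO) had a 3′ UTR region for RPB1. For pSer2 RPB1 the shares were 45.8% and 43.0%, so a group of transcribed genes can exceed all coding genes without being particular. A region over the 3′ UTRs of several genes was counted for 1 host, so a gene without one may still lie under a 3′ UTR region of a neighbour. Cytosolic ribosomal protein genes encode the protein part of the ribosome. They were taken by symbol, so the 85 genes include paralogues such as RPL7L1, RPL22L1 and RPS27L. This group had a 3′ UTR region for 27 of 85 genes (31.8%) in the WT RPB1 list and 32 (37.6%) in the SHP-1 KO RPB1 list. With pSer2 RPB1 it was 29 (34.1%) in the WT list and 24 (28.2%) in the SHP-1 KO list. Their median fold enrichment was 10.1, 13.1, 11.1 and 10.7, against 5.74, 5.79, 4.83 and 4.88 for all genes with a 3′ UTR region. RPS23 (28.1 and 29.9 for RPB1) and RPS29, with 4 to 7 regions per list, were among the strongest. Any region covered the 3′ UTR of 54, 68, 77 and 77 of the 85 genes, most often one classed as promoter.

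Liver plasma protein genes showed the same exchange of classes. A 3′ UTR region was called for 6 of 25 genes (24.0%) in the WT and 8 (32.0%) in the SHP-1 KO RPB1 list, among them APOH (34.5 and 22.6), FGG, the fibrinogen gamma chain (28.3 and 19.8), TF, transferrin (22.8 and 15.3), and AMBP (21.5 and 11.0). These 4 genes were each lower in SHP-1 KO cells. The pSer2 RPB1 lists had 2 genes each (8.0%), APOE (18.9) and FGB (8.38) in WT and AMBP (25.1) and TTR (4.38) in SHP-1 KO cells. Counting regions annotated 3′ UTR whatever their host, 5 of 25 genes were covered in each pSer2 RPB1 list, with RBP4, ITIH2 (13.1 and 13.3) and F2, prothrombin (22.2 and 21.5, under the CKAP5 regions), in both genotypes. With regions of any class, 20 and 19 genes were covered for RPB1 and 21 and 20 for pSer2 RPB1, and promoter regions made up 13, 9, 16 and 14 of these.

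Genes of gluconeogenesis and its regulation had a 3′ UTR region for 7 of 22 genes (31.8%) in the WT RPB1 list and 6 (27.3%) in its SHP-1 KO counterpart, and for 10 (45.5%) and 7 (31.8%) with pSer2 RPB1. HNF4A, the liver nuclear receptor, was strong throughout (16.5 and 14.1 for RPB1, 21.8 and 16.3 for pSer2 RPB1), as was LDHA, lactate dehydrogenase A (13.6, 13.2, 17.3 and 18.0). MDH2, the mitochondrial malate dehydrogenase, gave 4.54 and 5.28 for RPB1 and 15.6 and 8.99 for pSer2 RPB1. PCK1 and, at low heights, FOXO1 (3.47) and PPARGC1A (3.72) had a 3′ UTR region in the WT pSer2 RPB1 list and not in the SHP-1 KO list, while GOT1 was host to one in SHP-1 KO cells alone (5.40). A region annotated 3′ UTR with another host nonetheless lay over the 3′ UTR of GOT1 in both pSer2 RPB1 lists, with 5.03 (WT) and 9.75 (SHP-1 KO). G6PC1, FBP1 and PCK2 were host to none in any list. Promoter regions nonetheless covered the 3′ UTR of PCK2 in all 4 lists, with 10.7 (WT) and 82.9 (SHP-1 KO) for RPB1 and 5.29 and 7.25 for pSer2 RPB1.

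Of 26 cleavage and polyadenylation genes, 5 (19.2%) and 8 (30.8%) had a 3′ UTR region with RPB1 in WT and SHP-1 KO cells and 13 (50.0%) and 14 (53.8%) with pSer2 RPB1. SSU72, a phosphatase of the RPB1 tail, gave 4.70 and 5.81 for RPB1 and 11.4 and 9.37 for pSer2 RPB1. CPSF2, a cleavage factor subunit, had 6 and 5 pSer2 RPB1 regions (8.64 and 5.55) and none with RPB1, and WDR33, which binds AATAAA, gave 7.34, 7.37, 5.93 and 3.87. Of 18 genes for kinases and phosphatases of serine 2 and elongation factors, 6 (33.3%) and 7 (38.9%) had one with RPB1 and 13 (72.2%) and 11 (61.1%) with pSer2 RPB1. CDK12, a serine 2 kinase, gave 9.02 (WT) and 11.5 (SHP-1 KO), and CDK9, the kinase of pause release, 3.24 and 3.14, both with pSer2 RPB1 alone.

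Of 11 RNA polymerase II subunit genes, 3 (27.3%) and 6 (54.5%) had a 3′ UTR region with RPB1 and 1 (9.09%) and 3 (27.3%) with pSer2 RPB1. POLR2D was the only one that was host to a region in all 4 lists (10.0, 10.8, 13.4 and 9.99). POLR2E was host to regions in SHP-1 KO cells alone (15.8 and 14.0), and in WT cells its 3′ UTR lay under promoter regions (22.0 and 14.0). POLR2J was host to 1 RPB1 region in SHP-1 KO cells (3.70), and in the WT pSer2 RPB1 list a region with another host lay over its 3′ UTR (4.83). Among 10 partners and targets of STAT5 and SHP-1, STAT5A gave 14.9 and 8.14 for RPB1 and 5.31 and 3.50 for pSer2 RPB1, BCL2L1 had regions in all 4 lists (4.31 to 7.38), EGFR and INSR had pSer2 RPB1 regions alone, and STAT5B, JAK2, SOCS2, CISH and IGF1 had none.

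Of 13 iron, cholesterol and lipid genes, 3 (23.1%) had a 3′ UTR region in each RPB1 list and 5 (38.5%) and 6 (46.2%) in the pSer2 RPB1 lists. SCD, the desaturase that makes oleate, gave 14.0 and 15.0 for RPB1 and 17.2 and 16.0 for pSer2 RPB1. The transferrin receptor TFRC was higher in SHP-1 KO cells by its strongest pSer2 RPB1 region (12.8 against 4.08), although the region with most overlap of its main 3′ UTR there gave 5.13, and HMGCS1, an enzyme of cholesterol synthesis, was lower (6.58 against 19.7). The HMGCS1 value is that of the region classed as 3′ UTR, and the region with most overlap in SHP-1 KO cells was classed as exon and gave 16.0. Of 13 stress and early response genes, 3 (23.1%) and 2 (15.4%) had one with RPB1 and 4 (30.8%) and 3 (23.1%) with pSer2 RPB1. The pSer2 RPB1 shares were close to those of all coding genes, 26.6% and 23.4%. EGR1 (6.01, 9.93, 11.9 and 10.0) and JUN (7.46, 5.08, 7.15 and 4.64) had a 3′ UTR region in all 4 lists.

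Replication-dependent histone genes, whose messenger RNAs end without a poly(A) tail, had a 3′ UTR region for 1 of 70 genes in each RPB1 list (1.43%) and were host to none in the pSer2 RPB1 lists, 0 of 70, which allows a share of up to 4.29%. The genes were H2BC21 in WT (5.26) and H4C16 in SHP-1 KO cells (4.76). A region annotated 3′ UTR with another host lay over the 3′ UTR of H3C4 in all 4 lists (36.4, 26.2, 9.97 and 6.02). Promoter regions covered the 3′ UTR of 39 of 70 genes in the WT RPB1 list, 37 in the SHP-1 KO RPB1 list, 38 in the WT pSer2 RPB1 list and 36 in the SHP-1 KO pSer2 RPB1 list. Regions within 1 kb of a start, and some beyond it, were classed as promoter first. The low counts of 3′ UTR regions are thus set at least in part by that rule. They do not show a lack of polymerase at these 3′ UTRs, and the limit of 4.29% covers counting error only.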

How the data were processed

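RPB1 and pSer2 RPB1 were each profiled by ChIP-seq in 1 library of WT and 1 of SHP-1 KO HepG2 cells. For the lists they deposited, the authors used Trimmomatic for trimming, BWA for alignment to hg38 and MACS2 for narrow peaks, each with the matching input as control, and annotated every region. Versions are not given in the sources used here. Fold enrichment (a ratio to input at the summit) and −log10 q-values were used as the authors deposited them. A deposited table of the authors' own comparison of windows (counts of windows, p-values and FDR) was not used. Regions annotated 3′ UTR were taken with Python 3.11.15, pandas 2.3.3, NumPy 2.4.6, SciPy 1.17.1, pysam 0.24.0 and matplotlib 3.10.9. Promoters, which take in regions within 1 kb of a start and some beyond it, rank before 3′ UTRs in that annotation. Hosts, transcript ends and 3′ UTRs came from GENCODE release 44 on hg38.

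Overlap meant at least 1 bp. Shares carry 95% Wilson intervals and medians 95% binomial intervals. With 1 library per group no test between groups was run. Named were, in each list, the 6 strongest 3′ UTR regions and the 6 strongest without a region of the other genotype, the 6 genes with the highest minimum over all 4 lists, the 6 genes with most regions in the WT pSer2 RPB1 list, PCK1, PTPN6, and examples from 10 gene lists. Those examples were picked with their values in view, and a few genes that the rule or lists include are not reported here. The members and gene lists were chosen with earlier results of these data known. The interval and overlap functions were tested on simulated data. Alternatives were a stricter q-value, the summit inside a GENCODE 3′ UTR, reciprocal overlap, a partner also in a 3′ UTR, the outermost gene end, the middle of the region, a narrower window, the sense AATAAA alone, duplicates counted once, and leaving out 1p.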

Additional observations from a re-analysis of the deposited data

How the results depend on the processing

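Of 80 values recomputed under the alternatives, 28 stayed within the 95% interval of the main value and 52 moved beyond it. None changed sign, but only the summit distances could, since shares and fold enrichments are always positive. Counting duplicates once left every value as it was, so those alternatives were no check. Values are in the order WT RPB1, SHP-1 KO RPB1, WT pSer2 RPB1 and SHP-1 KO pSer2 RPB1, and the causes of the moves were not tested. At a −log10 q-value threshold of 5, the share annotated 3′ UTR was 6.83%, 7.12%, 12.7% and 13.7%, the overlap with the other genotype 63.9%, 71.5%, 66.4% and 80.1%, the median fold enrichment 6.53, 6.38, 4.94 and 4.96, the median summit distance -743, -655, -970.5 and -920.5 bp, and the share with a poly(A) hexamer 19.8%, 23.8%, 35.8% and 36.4%, while the overlap of pSer2 RPB1 with RPB1 was 22.6% and 24.9%. With the summit inside a GENCODE 3′ UTR, the pSer2 RPB1 shares were 9.79% and 10.6%. A reciprocal overlap of 50% gave 27.9%, 29.8%, 31.6% and 36.8% between genotypes and 17.0%, 17.1%, 5.76% and 6.28% between antibodies. A partner also annotated 3′ UTR gave 52.6%, 57.8%, 57.9% and 71.0% between genotypes and 62.5%, 65.1%, 15.8% and 17.4% between antibodies. Distances to the outermost end of the gene were -1219, -1141, -1955 and -1884 bp. Hexamer shares within 50 bp of the summit were 11.1%, 15.0%, 22.0% and 22.7%, and for AATAAA on the sense strand alone 8.68%, 11.6%, 14.6% and 13.8%. No paired analysis was possible because each group had 1 library. Depth is unknown, so an absent region cannot be told apart from one under the detection limit of its library.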

Other observations

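The genes with most 3′ UTR regions in the SHP-1 KO lists were singled out after their values were seen. UGGT1, a sensor of glycoprotein folding, had 21 in the SHP-1 KO pSer2 RPB1 list and 6 in the WT list, with highest fold enrichments of 6.28 and 4.18. INTS6, an Integrator subunit, had 11 in the SHP-1 KO RPB1 list and 8 in the WT list, with highest fold enrichments of 13.5 and 11.8.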
